A study of Mus musculus with 12 samples.

Results

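Resting B (RB) cells stimulated through CD40 were compared with RB cells stimulated through CD86, in both cases with no TLR-2 ligand in the culture. The comparison took 4 of the 12 arrays of the series, 2 from cells labelled as stimulated with anti-CD40 and 2 from cells labelled as stimulated with anti-CD86, chosen by their labels and not by any measured value. Every array came from splenic RB cells of BALB/c mice that were female and 6 weeks old per the labels, cultured for 4 h in RPMI medium with FCS. RB cells were prepared by removing cells that carry CD43, a surface protein which resting B cells lack. The methods describe anti-CD86 as a biotin-conjugated antibody, bound on ice and then cross-linked with streptavidin. A biotin-conjugated anti-CD40 antibody is among the reagents, and neither its dose nor a cross-linking step is given for the anti-CD40 stimulation, so that the receptor engaged and the way in which it was engaged cannot be told apart here. Both unstimulated arrays of the series were used as the background, and no isotype control array was analysed here. The remaining arrays, from Pam2CSK4 alone or with either antibody, entered the filter on dim probes, the slide term and the estimate of the spread. Nothing in the labels says whether the samples of a condition were separate cultures or animals, so the p-values measure the spread between these samples, which may be technical.

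CD40 is a receptor of the TNF receptor family on B cells. Its ligand, CD40L, is carried by activated helper T cells, and binding recruits TRAF adaptors to the tail of CD40. TRAF2 and TRAF3 hold the kinase NIK (Map3k14) in check together with the cIAP proteins, and their recruitment to the receptor opens the alternative NF-kB pathway, while TRAF6 and the IKK complex drive the classical one. The NF-kB dimers then induce survival, costimulatory and growth genes, together with their own inhibitors. CD86 is best known as a ligand that B cells show to CD28 on T cells, but cross-linking it on B cells has been described to signal back into the B cell through the PI3K and PKC pathways.

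The 4 arrays lay on 2 slides, with 1 array of each stimulus per slide, so that the difference was available within each slide. A level is given throughout as log2 of the processed intensity of a probe over the 75th percentile of its array, and 0 therefore marks the 75th percentile. The slide 1 arrays had 47.4% (anti-CD40) and 48.9% (anti-CD86) of their spots well above background, and the slide 2 arrays 60.6% and 55.9%. The second anti-CD40 array stood apart on dim probes. Over the 4864 probes with a mean level of -3 or below, the median difference between anti-CD40 and anti-CD86 was 0.011 on slide 1 and 0.355 on slide 2. Over the 12015 probes with a mean level above 1, those medians were 0.079 and -0.053, and the differences on the 2 slides had a correlation across probes of 0.895. Over all 31599 probes tested that correlation was 0.54. Probes are not independent replicates, and the probes of a slide share its arrays. At the bright end, 716 genes were saturated on all 4 arrays. Their differences had a median of 0.17, which lay between the log2 differences in the 75th percentile of the arrays (0.21 on slide 1 and 0.13 on slide 2), so that such a probe shows the scaling and not its own level.

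Of 31599 probes tested, 11008 (34.8%) differed between anti-CD40 and anti-CD86 at an adjusted p under 0.05 (limma, all 12 arrays, with the slide as a term), 5052 of them higher and 5956 lower with anti-CD40. In RNA of a whole culture, fewer cells of a type and less RNA per cell cannot be told apart. Taking the brightest probe of each gene, 2515 of 16738 genes (15.0%) were higher with anti-CD40 and 3479 (20.8%) were lower. The median difference over all genes was 0.01. At least 2-fold differences were fewer and leaned the other way, with 383 genes higher and 233 lower. Limited to genes well above background and unsaturated on all 4 arrays, 247 were at least 2-fold higher and 187 lower, and 20 against 1 differed at least 4-fold. The count of calls depended on how the slide was modelled. It was 3197 probes with no slide term and 1709 from the 4 compared arrays alone. With each array centred on its median in place of the 75th percentile, every difference shifted by one constant, the median over probes moved from 0.04 to -0.39, and the higher calls made up 9.91% of all calls in place of 45.9%. The constant is a mean over both slides and came mostly from slide 2. Median intensities were 21.0 (anti-CD40) and 22.6 (anti-CD86) on slide 1, and 51.3 and 33.3 on slide 2. Differences of less than about that shift have a direction only on the scale used here, the 75th percentile of an array.

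Among genes well above background and unsaturated on all 4 arrays, the most raised by anti-CD40 over anti-CD86 was Il2ra. It encodes the alpha chain of the IL-2 receptor (CD25). Its level was 1.88 and 1.72 on the anti-CD40 arrays of slides 1 and 2, and -1.97 and -1.86 on the anti-CD86 arrays. The anti-CD86 arrays lay beside the unstimulated ones (-1.85 and -1.82), more than 3 log2 units below both anti-CD40 arrays. The difference was 3.71 ± 0.10 (SE of the fit, n = 2 against 2), or 13.1-fold, with an adjusted p of 2.1e-05 from limma. Bcl2l1, which encodes the survival protein Bcl-xL, followed closely. It stood at 3.53 and 3.34 with anti-CD40 against -0.28 and -0.22 with anti-CD86, a difference of 3.68 ± 0.10 or 12.8-fold, and its 3 probes gave differences between 3.57 and 3.76. Zbtb46, a transcription factor best known from dendritic cells, was at 2.48 and 2.11 against -0.75 and -0.86, which is 8.55-fold. Its 4 probes differed by 2.28 to 3.10.

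Esam and 8 further genes completed the 12 with the greatest rise. They were Esam (an endothelial cell adhesion molecule, 2.84 ± 0.18), Cdk5r1 (the p35 activator of the kinase Cdk5, 2.74 ± 0.07), Mfsd2a (a lysophospholipid transporter, 2.44 ± 0.08), Olfr1394 (2.43 ± 0.24), Gm9106 (2.41 ± 0.07), Sema7a (a GPI-anchored semaphorin, 2.40 ± 0.07), Olfr1131 (2.39 ± 0.11), Saxo2 (2.36 ± 0.20) and Marcksl1 (a MARCKS family protein, 2.27 ± 0.06). In each of the 12, both anti-CD40 arrays lay above both anti-CD86 arrays. The genes were picked for a large called difference with 1 direction on both slides, so this separation largely follows from the choice. The replicates were close for Sema7a, at 6.47 and 6.43 with anti-CD40 and 4.02 and 4.08 with anti-CD86. They were further apart for the olfactory receptor gene Olfr1131, at 0.36 and 1.73 against -1.88 and -0.81, where both slide 2 arrays were the brighter ones. Saxo2 (-3.56 and -4.02) and, on slide 1, Olfr1394 (-3.70 and -2.51) were close to the background on the anti-CD86 arrays, so the sizes of their differences are uncertain.

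Genes lower with anti-CD40 were ranked under the same limits of background and saturation. Irs1, the adaptor that links the insulin and IGF1 receptors to PI3K, had the largest difference among them. It stood at -1.04 and -1.26 with anti-CD40 and at 1.15 and 1.11 with anti-CD86, with the unstimulated arrays at 1.02 and 0.99. The difference was -2.28 ± 0.07, a 4.86-fold lower level (limma, adjusted p = 2.2e-05). Fcrla, an intracellular Fc receptor-like protein of B cells, was at 2.55 and 2.37 against 4.43 on both anti-CD86 arrays, 3.93-fold lower. Its unstimulated arrays (4.49 and 4.45) were level with anti-CD86. The others were Mbd4 (a DNA glycosylase, -1.95 ± 0.07), Ripor1 (-1.86 ± 0.06), Atpgd1 (-1.86 ± 0.16), Ppargc1a (the coactivator PGC-1alpha of mitochondrial genes, -1.83 ± 0.09), Xkrx (-1.82 ± 0.08), Lamc1 (the laminin gamma 1 chain, -1.80 ± 0.09), Slc10a7 (-1.76 ± 0.18), Hes5 (a target of Notch, -1.74 ± 0.06), Unc119b (-1.73 ± 0.09) and Rabgap1l (-1.70 ± 0.07). The arrays of the 2 stimuli did not overlap for any of the 12, which again largely follows from how the genes were picked. Rabgap1l rests on its brightest probe, since its 4 probes ranged from -1.70 to 0.06. The second probes of Slc10a7 (-0.57) and Ppargc1a (-1.37) did not pass.

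**Figure D1:**
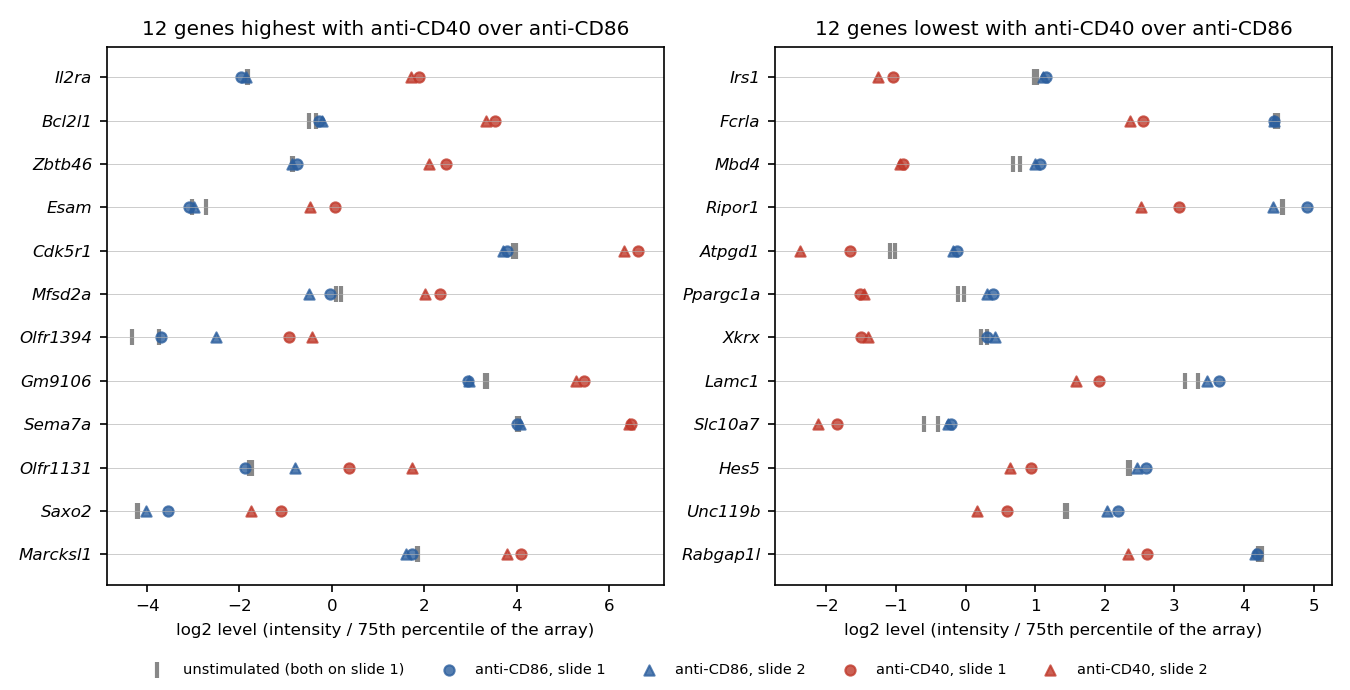
Log2 level (x axis, intensity over the 75th percentile of the array) of the 24 genes at both ends of the difference between anti-CD40 and anti-CD86, 12 at each end, with a circle or triangle for each array and bars for the unstimulated arrays. Both anti-CD40 arrays lie to one side of both anti-CD86 arrays in all 24 genes, as for Il2ra (1.88 and 1.72 against -1.97 and -1.86). The genes were picked by the size and direction of this difference, so the separation largely follows from the choice.

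**Figure D2:**
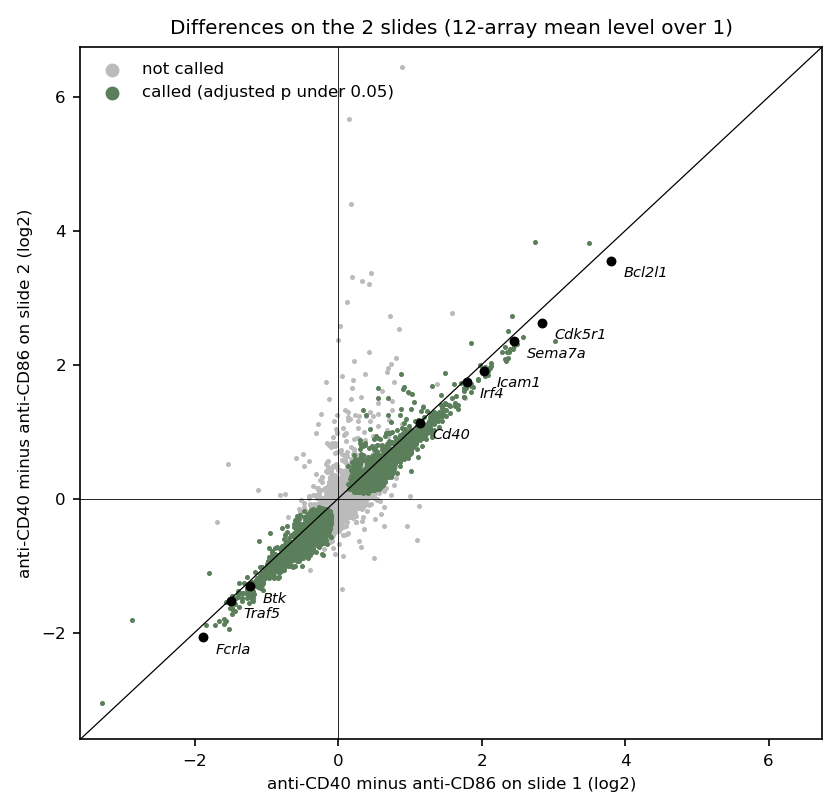
Anti-CD40 minus anti-CD86 (log2) on slide 1 (x axis) and slide 2 (y axis) for the 12015 probes with a mean level above 1, with called probes in green, the line of equality and named genes in black. The points follow the line (correlation across probes 0.895, against 0.54 over all 31599 probes tested), apart from uncalled probes that rise on slide 2 alone.

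The components of the CD40 pathway itself split into raised and lowered members. Of 21 CD40 and TRAF signalling genes tested, 8 were higher with anti-CD40, 3 were lower and the others did not pass. The median difference was 0.01, the same as that of all genes, of which 15.0% were higher and 20.8% lower. Cd40 was among the higher ones. Its levels were 4.01 and 3.52 with anti-CD40, 2.88 and 2.39 with anti-CD86, and 2.71 and 2.72 in unstimulated cells. The difference was 1.14 ± 0.07, or 2.20-fold, and its 3 probes agreed within 1.14 to 1.26. Traf1, a TRAF without a RING domain that prolongs CD40 signals, had the largest rise of the list, at 4.28 and 4.04 against 2.83 and 2.68 (1.40 ± 0.06). The cIAP genes Birc3 (0.92 ± 0.14) and Birc2 (0.67 ± 0.06) were higher, and so was Tank, the TRAF-binding adaptor, at 5.45 and 5.21 against 4.66 and 4.54. Traf6, the adaptor of the classical pathway, was higher by 0.55 ± 0.06.

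Traf5, an adaptor that shares its partners with TRAF2, went the other way. It stood at 4.10 and 3.83 with anti-CD40 and at 5.59 and 5.36 with anti-CD86, around unstimulated levels of 5.23 and 5.30, and the difference of -1.51 ± 0.08 was 2.85-fold. Traf3ip3, a TRAF3-interacting protein, was lower by 0.74 on the log2 scale (-0.74 ± 0.06), as was Jak3, the kinase of the common gamma chain that also binds CD40 (-0.25 ± 0.07, limma adjusted p = 0.029). Small positive differences that passed the test were those of Traf2 (0.22 ± 0.05) and Ube2n (0.26 ± 0.06), and both turned negative with median centring. The kinases and their regulators did not pass. They were Map3k14 (0.15 ± 0.07), Chuk (0.01 ± 0.05 in its brightest probe), Ikbkb (-0.12 ± 0.07), Ikbkg (-0.46 ± 0.20), Map3k7 (0.00 ± 0.10), Map3k1 (-0.12 ± 0.07), Tab1 (-0.15 ± 0.05), Tab2 (0.08 ± 0.06), Traf3 (-0.10 ± 0.06) and Traf3ip2 (-0.27 ± 0.09). Chuk had a second probe that passed as lower with anti-CD40 (-0.77), and the second probes of Ikbkg (0.19) and Tab2 (-0.21) had the opposite sign and did not pass.

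NF-kB subunits and their inhibitors were higher with anti-CD40 almost throughout. Of 11 tested, 10 were higher and none was lower, and the median difference was 0.91, beside 15.0% higher calls and a median of 0.01 over all genes. Among the DNA-binding subunits, Rel (c-Rel) was at 4.71 and 4.45 with anti-CD40 and at 3.52 and 3.46 with anti-CD86, with unstimulated cells between them at 4.03 and 4.11. It was higher by 1.09 ± 0.08 in its brightest probe, and its other probe gave 1.95 and did not pass. Nfkb2, the p100 precursor of the alternative pathway, stood at 5.51 and 5.04 against 4.57 and 4.16 (0.91 ± 0.05). Nfkb1 was higher by 0.72 ± 0.07, although 2 of its 4 spots were saturated. Relb (0.44 ± 0.05) and Rela (0.29 ± 0.05) differed less, and Rela had a second probe at -0.07 and turned negative with median centring. The largest differences of the list were those of inhibitors. Nfkbid, the nuclear IkBNS, was at 4.33 and 3.84 against 2.94 and 2.59, a difference of 1.32 ± 0.06. Nfkbie (IkB epsilon) was at 5.69 on both anti-CD40 arrays against 4.42 and 4.46 (1.25 ± 0.05), and Nfkbib (IkB beta) at 5.55 and 5.16 against 4.36 and 4.12 (1.12 ± 0.06). Nfkbiz differed by 0.91 ± 0.07 and Bcl3 by 0.61 ± 0.06. Nfkbia, the exception, was saturated on all 4 arrays, so that its difference of 0.17 ± 0.11 gives no level.

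**Figure D3:**
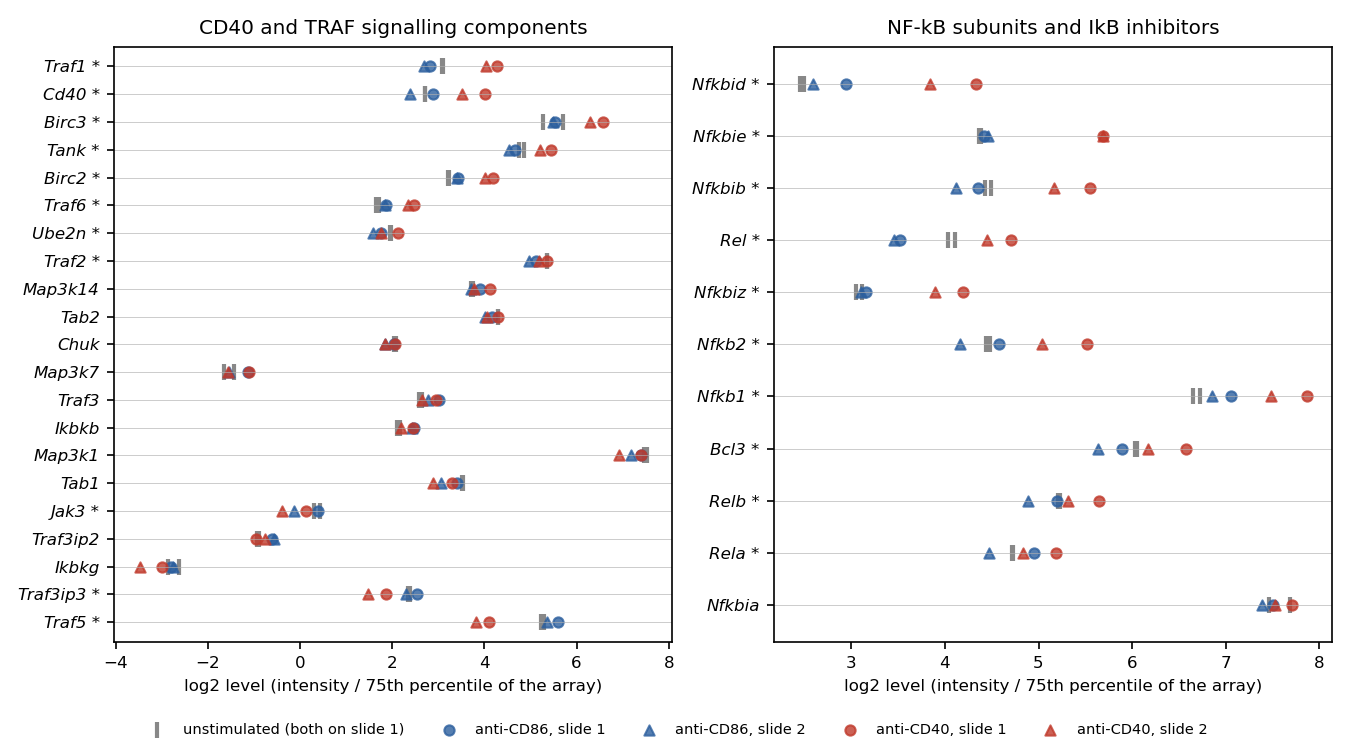
Log2 level (x axis, intensity over the 75th percentile of the array) of each tested CD40 and TRAF component and each NF-kB subunit or IkB inhibitor on every array, sorted by their difference, with called genes starred and bars for the unstimulated arrays. Traf1 (1.40) heads the first panel and Traf5 (-1.51) ends it, and in the second panel Nfkbia alone has no star.

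NF-kB dimers bind decameric kappaB sites in promoters. The kappaB consensus was searched on both strands in the RefSeq promoter windows of build GRCm38.p6, which run from 250 bases before to 50 bases after each gene start. A match is a description of the letters and not a bound site. Of the 30 members of both NF-kB lists that were higher with anti-CD40, 27 had a window, and 11 of these (40.7%) held a match in at least 1 of their windows. The same held for 616 of 10090 tested genes with a window (6.11%) and for 1480 of 32851 windows of all genes (4.51%). Genes were put on these lists partly because NF-kB sites are known in them, so the shares are not independent of the lists. Among all genes at least 2-fold higher with anti-CD40, 31 of 243 with a window held a match (12.8%). Among those at least 2-fold lower it was 8 of 160 (5%). The higher genes include members of the NF-kB lists with a match, such as Bcl2l1 and Ebi3, so that share is not independent of the lists either. The 250 bases before the start are shown for the 4 listed genes with the largest differences among those with a match, with the matches in capitals.
Bcl2l1, chr2:152830718-152830967, minus strand, 1 of its 3 windows: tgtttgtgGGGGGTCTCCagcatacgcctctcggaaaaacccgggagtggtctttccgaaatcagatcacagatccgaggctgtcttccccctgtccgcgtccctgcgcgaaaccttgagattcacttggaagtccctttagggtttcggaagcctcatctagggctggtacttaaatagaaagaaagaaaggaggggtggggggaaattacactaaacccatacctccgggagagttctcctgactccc
Ebi3, chr17:55952373-55952622, plus strand: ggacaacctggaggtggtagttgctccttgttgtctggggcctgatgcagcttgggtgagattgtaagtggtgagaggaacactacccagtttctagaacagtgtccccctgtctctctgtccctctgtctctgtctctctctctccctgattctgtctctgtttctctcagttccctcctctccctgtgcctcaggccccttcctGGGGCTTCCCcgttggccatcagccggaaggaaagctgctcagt
Nfkbid, chr7:30422156-30422405, plus strand, 1 of its 3 windows: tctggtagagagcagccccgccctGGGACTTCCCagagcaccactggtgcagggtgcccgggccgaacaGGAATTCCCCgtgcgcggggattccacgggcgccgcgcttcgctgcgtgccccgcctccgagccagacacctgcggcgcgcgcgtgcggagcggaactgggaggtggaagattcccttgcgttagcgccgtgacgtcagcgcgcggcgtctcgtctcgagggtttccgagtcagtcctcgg
Nfkbie, chr17:45555450-45555699, plus strand: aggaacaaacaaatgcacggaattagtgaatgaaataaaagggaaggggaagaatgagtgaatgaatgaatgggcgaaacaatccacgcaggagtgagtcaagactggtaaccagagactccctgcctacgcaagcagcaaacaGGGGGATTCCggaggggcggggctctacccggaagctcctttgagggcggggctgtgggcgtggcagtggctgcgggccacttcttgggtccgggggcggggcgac

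Target and feedback genes of NF-kB rose with anti-CD40 over anti-CD86 in 23 of 32 cases, and 2 were lower. The list had a median difference of 0.75, beside 15.0% higher and 20.8% lower calls among all genes. Beside Bcl2l1, the leading members were Bcl2a1b and Bcl2a1a, which encode the survival protein A1, Ebi3, the beta chain of IL-27 and IL-35, and Icam1, the ligand of LFA-1. Ebi3 was at 4.61 and 4.26 with anti-CD40 and at 2.51 and 2.30 with anti-CD86 (2.03 ± 0.06, 4.07-fold). Icam1 was at 3.07 and 2.91 against 1.03 and 1.00 (1.98 ± 0.07, 3.93-fold). Unstimulated cells had Icam1 at 0.31 and 0.27, below both stimuli, and Ebi3 at 2.89 and 2.92, between them. The A1 genes are near-identical copies that a probe may not separate. Bcl2a1b stood at 7.48 and 7.10 against 5.35 and 5.07, and Bcl2a1a differed by 1.96 ± 0.08 with 1 spot saturated. The death receptor Fas, itself a target of NF-kB, was higher by 1.50 ± 0.08, at 3.11 and 2.66 against 1.45 and 1.32.

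Surface markers of B cell activation mostly moved the same way, with 16 of 25 higher, 4 lower and a median of 0.51. Among all genes, 15.0% were higher and 20.8% lower. The list shares members with the NF-kB target list, Icam1 among them, so the counts of these lists are not independent. None of the 4 lower markers is among the genes named next. Behind Il2ra, Icam1 and Fas came Il21r, the receptor of the follicular helper cytokine IL-21, at 2.88 and 2.48 with anti-CD40 against 1.53 and 1.24 (1.30 ± 0.06), and Slamf1, a homotypic receptor of lymphocytes, at 0.19 and 0.03 against -1.15 and -1.05 (1.21 ± 0.10). The costimulatory ligands had smaller differences. Cd86 stood at 1.96 and 1.74 with anti-CD40 and at 1.51 and 1.38 with anti-CD86, with unstimulated cells at 1.41 and 1.43. The difference was 0.41 ± 0.07 (limma, adjusted p = 0.0041), and with median centring it was -0.02. Cd80, its relative, was dim at -1.69 and -1.56 against -2.20 and -2.42, and passed narrowly (0.68 ± 0.21, limma adjusted p = 0.049). Cd28, the receptor of both on T cells, was at 0.09 and -1.12 with anti-CD40 against -0.95 and -1.08, and it did not pass (0.51 ± 0.24).

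Survival genes were mostly higher with anti-CD40. Of 14 anti-apoptotic genes, 11 were higher and 1 was lower, with a median of 0.78, and 5 of the 14 are also in the NF-kB target list. Pim1, a survival kinase, was at 5.33 and 4.86 against 3.57 and 3.34 (1.64 ± 0.07), and unstimulated cells had it at 2.77 and 2.88, below both stimuli. Birc5 (survivin) was at 6.61 and 6.39 against 5.55 and 5.56 (0.94 ± 0.07). Of 18 pro-apoptotic genes, 7 were lower with anti-CD40 and 2 were higher. The median of that list, 0.05, was close to that of all genes, of which 15.0% were higher and 20.8% lower. The initiator caspase gene Casp9 was lower by 1.05 on the log2 scale (-1.05 ± 0.09), at -0.02 and -0.23 against 0.87 and 0.97. Casp8 stood at 1.36 and 0.91 against 2.15 and 1.73, with unstimulated cells between at 1.61 and 1.59. The BH3-only gene Bid went the other way (0.87 ± 0.09). Bmf was lower in its brightest probe (-0.79 ± 0.10), and its second probe gave 0.34.

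Myc and genes of ribosome synthesis formed the other large raised group. Myc was at 6.77 and 6.39 with anti-CD40 and at 4.72 and 4.56 with anti-CD86, beside 4.95 and 5.02 in unstimulated cells. The difference was 1.94 ± 0.07, or 3.84-fold, and its 3 probes gave 1.94 to 2.28. Of 30 ribosome biogenesis factors, 25 were higher, none was lower and the median was 0.61, beside 15.0% higher and 20.8% lower calls among all genes. Nop16 (1.35 ± 0.07), Nop58, a core protein of box C/D snoRNPs (1.14 ± 0.07), Nolc1 (1.12 ± 0.05) and Polr1b, a subunit of RNA polymerase I (1.12 ± 0.07), led the list. Nop58 stood at 6.05 and 6.00 against 4.84 and 4.93, and Polr1b at 1.45 and 1.03 against 0.24 and 0.00. The cytosolic ribosomal proteins gave no such picture. Only Rpl14 of 30 passed (0.27 ± 0.06), and most of the list was saturated on all 4 arrays.

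Enzymes of nucleotide and polyamine synthesis, counted with Myc and its partners, were higher in 12 of 31 cases and lower in 3, with a median of 0.17. Ctps, the CTP synthase, was at 5.16 and 4.80 against 3.68 and 3.55 (1.36 ± 0.06), and Ppat, the first enzyme of purine synthesis, at 3.05 and 2.93 against 1.63 and 1.67 (1.34 ± 0.07). Nme1 (0.83 ± 0.05), Srm, the spermidine synthase (0.74 ± 0.05), and Shmt2 (0.70 ± 0.09) were also higher. Of 28 glycolytic enzymes and nutrient transporters, 5 were higher and 8 lower, and the median was -0.03. For both lists the shares among all genes were 15.0% higher and 20.8% lower. Hk2, the inducible hexokinase, was at 3.75 and 3.59 against 2.56 and 2.68 (1.05 ± 0.08), and the lactate transporter Slc16a1 and the amino acid transporter Slc7a5 were higher by 0.98 ± 0.06 and 0.88 ± 0.06. Slc3a2, the partner chain of Slc7a5, was lower (-0.54 ± 0.06). Pfkp was lower in its brightest probe (-0.46 ± 0.09), while its second probe gave 1.08.

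Cell cycle genes as a list did not stand apart, with 3 of 29 higher, 7 lower and a median of -0.08. Among all genes, 15.0% were higher and 20.8% lower. The D-type cyclins differed in opposite directions. Ccnd2 was at 5.03 and 4.51 with anti-CD40 and at 2.94 and 2.60 with anti-CD86 (2.00 ± 0.06, 4.00-fold), whereas Ccnd3 was at 2.62 and 2.24 against 3.81 and 3.67 (-1.31 ± 0.07). Their unstimulated levels were 2.83 and 2.84 for Ccnd2 and 3.44 and 3.47 for Ccnd3. The inhibitors Cdkn1b (p27, -0.75 ± 0.08) and Cdkn2d (p19, -0.55 ± 0.08) were lower with anti-CD40, as was the licensing factor Mcm2 (-0.35 ± 0.07).

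Of 26 genes that restrain growth or mark resting lymphocytes, 16 were lower with anti-CD40, 3 were higher and 7 did not pass, with a median of -0.39, against 20.8% lower calls among all genes. With no slide term, 8 of the 26 were lower. Slfn2, which keeps lymphocytes quiescent, was at 3.01 and 2.65 with anti-CD40 and at 4.23 and 3.95 with anti-CD86 (-1.26 ± 0.08). Unstimulated cells had it at 3.60 and 3.81. Btg2, an antiproliferative gene, was at 4.23 and 3.96 against 5.20 and 5.11 (-1.06 ± 0.07), and Sesn1 (-0.95 ± 0.06) and Pik3ip1, an inhibitor of PI3K (-0.75 ± 0.06), were also lower. Zfp36l1, which degrades AU-rich mRNA, was an exception (0.87 ± 0.05).

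Regulators of B cell and plasma cell fate were lower in 13 of 25 cases and higher in 6, with a median of -0.28. Among all genes, 20.8% were lower and 15.0% higher. The 2 regulators with the largest rise were Irf4, needed for plasma cell and germinal centre fates, and Batf, needed for class switching. Irf4 stood at 4.84 and 4.91 with anti-CD40 against 3.05 and 3.17 (1.77 ± 0.05), and Batf at 4.43 and 4.16 against 2.57 and 2.47 (1.77 ± 0.09), each 3.41-fold. Lower were Sdc1, the plasma cell marker CD138, at 0.64 and 0.27 against 1.77 and 1.50 (-1.18 ± 0.09), the E protein inhibitor Id3 (-1.08 ± 0.06), Bach2, a repressor of plasma cell fate (-0.73 ± 0.06), and Notch2, the receptor that drives marginal zone fate (-0.70 ± 0.06). Of the 3 Notch2 probes (-1.42 to -0.59), 2 passed. The Notch target Hes5 was in the lowest 12 genes, as given above. Hes1 and Dtx1, members of the fate list, were not among its 6 largest called differences, and Notch signalling was not tested.

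The antigen receptor pathway had 12 of 28 genes lower, 2 higher and a median of -0.18, beside 20.8% lower and 15.0% higher calls among all genes. Behind Fcrla, the largest decreases were those of Fcgr2b, the inhibitory Fc receptor, at 2.23 and 1.70 against 3.40 and 3.12 (-1.30 ± 0.08), and of the kinase Btk, at 3.44 and 3.07 against 4.66 and 4.37 (-1.26 ± 0.06). Lyn (-0.72 ± 0.08) and Malt1 (-0.61 ± 0.06) were lower as well. Cd81, a tetraspanin of the B cell coreceptor, rose to 6.64 and 6.40 with anti-CD40 against 5.40 and 5.39 (1.13 ± 0.08). Of 22 trafficking receptors, 9 were lower and 3 higher, with a median of -0.10. S1pr1, the receptor that lets lymphocytes leave lymphoid tissue, was at 1.92 and 1.59 against 3.19 and 3.01 (-1.35 ± 0.08), with unstimulated cells above both at 3.66 and 3.64. S1pr4 (-1.36 ± 0.10), the integrin chain Itga4 (-1.01 ± 0.08, with other probes up to -0.09) and the chemokine receptor Ccr6 (-0.78 ± 0.07) were lower too. The follicle and T zone receptors were higher. Cxcr5 was at 7.56 and 7.25 against 6.35 and 6.17 (1.15 ± 0.06), and Ccr7 was higher by 0.64 ± 0.07 with 2 of 4 spots saturated.

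Of 19 components linked to CD86 signalling in B cells, 7 were lower with anti-CD40 and 3 were higher, with a median of -0.17, beside 20.8% lower and 15.0% higher calls among all genes. With no slide term, 2 were lower and none was higher. The PKC isoform Prkcd was at 4.44 and 4.10 with anti-CD40 against 4.93 and 4.73 with anti-CD86 (-0.56 ± 0.07), with both unstimulated arrays at 4.10. Pik3ca, a catalytic subunit of PI3K, and Mapk3 (ERK1) were lower by 0.52 and 0.46 on the log2 scale (-0.52 ± 0.08 and -0.46 ± 0.06). Phb, a prohibitin described to bind CD86, was higher (0.48 ± 0.06), beside Cd80 and Cd86 themselves.

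Chemokines and cytokines were higher in 7 of 22 cases and lower in 4, beside 15.0% higher and 20.8% lower calls among all genes. Apart from Ebi3, the differences were modest, with Ccl4 at 5.34 and 5.03 against 4.80 and 4.49 (0.54 ± 0.06) and Lta, lymphotoxin alpha, higher by 0.54 ± 0.06. Il6 was at -0.27 and -0.69 against -0.97 and -0.90 (0.46 ± 0.12), and both unstimulated arrays, at -0.11 and 0.01, were above all 4. Clcf1, a B cell-stimulating cytokine of the IL-6 family, was lower with anti-CD40, at -0.75 and -1.01 against 0.07 and -0.11 (-0.86 ± 0.09). Immediate early genes were mixed, with 8 of 23 higher and 7 lower. Beside Myc, Maff, a small MAF factor, was higher, at 5.16 and 4.93 against 3.04 and 2.97 (2.03 ± 0.06), and Nr4a2 was lower (-0.85 ± 0.06). SOCS, DUSP and STAT genes were higher in 9 of 23 cases and lower in 3, with the phosphatases Dusp14 (1.02 ± 0.14) and Dusp4 (1.01 ± 0.06) and Stat5a (0.85 ± 0.08) in front.

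Innate sensing genes showed single large differences within lists that did not move as a whole. Of 17 Toll-like receptors and adaptors, 3 were higher and 4 lower, beside 15.0% higher and 20.8% lower calls among all genes. Tlr1, a partner of TLR-2 in the recognition of triacylated lipopeptides, stood at 2.40 and 2.18 with anti-CD40 against 0.92 and 0.75, with unstimulated cells at 0.59 and 0.53 (1.45 ± 0.07, 2.74-fold). Tlr6, the partner for diacylated lipopeptides such as Pam2CSK4, was at 1.56 and 1.36 against 0.82 and 0.22 (0.94 ± 0.18). Irak3, an inhibitor of that pathway, was lower (-1.06 ± 0.07). Of 26 interferon-stimulated genes, 2 were higher and 6 lower, led by Ddx58 (RIG-I, -0.94 ± 0.07) and Irgm1 (-0.91 ± 0.11). Among 27 proteasome genes, 6 were higher and 5 lower. The lower ones included the immunoproteasome subunits Psmb10 (-0.57 ± 0.05), Psmb8 (-0.57 ± 0.07) and Psmb9 (-0.42 ± 0.05) and the peptide transporter Tap2 (-0.81 ± 0.06), and the higher ones Psme2, a chain of the proteasome activator (0.76 ± 0.06), and Psma6 (0.62 ± 0.06). In the MHC class II list, 2 of 16 were higher and 3 lower. Marchf1, the ligase that removes MHC class II and CD86 from the surface, was at 2.32 and 1.86 against 3.30 and 3.03 (-1.08 ± 0.06), and both stimuli lay below unstimulated cells at 3.59 and 3.63. Ciita, the master regulator of the class II genes, was lower by 0.43 on the log2 scale (-0.43 ± 0.05). H2-DMa, a chain of the peptide exchange factor, was higher (0.58 ± 0.07).

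The remaining lists had shares of calls near or below those of all genes (15.0% higher and 20.8% lower). They were cholesterol synthesis (4 of 21 higher, 4 lower), the unfolded protein and heat shock response (4 of 23 higher, 2 lower) and oxidative phosphorylation (3 of 28 higher, 5 lower). Single members were the isomerase Idi1 (0.93 ± 0.05) and the cholesterol exporter Abca1 (-0.94 ± 0.08). The numbers of higher calls fell under median centring, to 3 of 11 NF-kB subunits and inhibitors, 11 of 32 NF-kB targets, 6 of 25 activation markers, 4 of 14 anti-apoptotic genes, 4 of 30 ribosome biogenesis factors and 3 of 31 genes of the Myc and nucleotide list. Lower calls fell less, to 14 of 26 quiescence genes and 11 of 28 antigen receptor genes. Median centring lowers every difference by one constant, so the smaller fall of the lower calls follows from that shift. It does not show that the lower lists are more stable. With no slide term, the higher calls were 7, 16, 11, 7, 14 and 5 in those lists, in the same order, and 6 antigen receptor genes were lower.

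**Figure D4:**
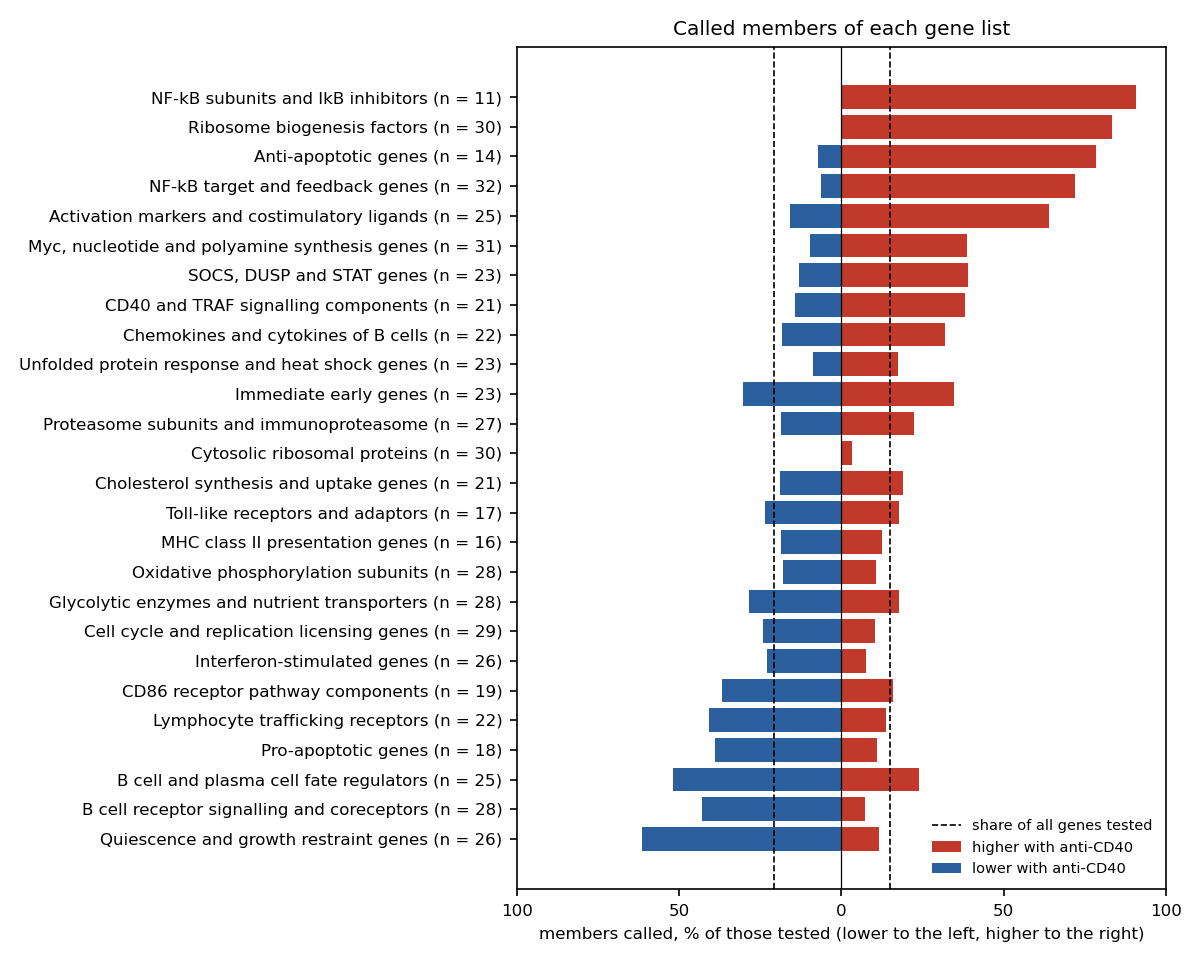
Members called higher (right) and lower (left) with anti-CD40, as a percentage of the members tested in each gene list, with dashed lines at the shares of all genes (15.0% higher and 20.8% lower). NF-kB subunits (10 of 11), ribosome biogenesis factors (25 of 30) and anti-apoptotic genes (11 of 14) reach furthest to the right and quiescence genes (16 of 26) furthest to the left.

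Each stimulus was also set beside unstimulated cells, in the same fit, to show on which side a difference lay. These comparisons share the unstimulated arrays, which were both on slide 1. With anti-CD40, 12.9% of the genes were higher and 29.4% lower than in unstimulated cells, and with anti-CD86 10.4% were higher and 20.4% lower. For Il2ra, anti-CD40 stood 3.61 ± 0.10 above unstimulated cells and anti-CD86 -0.11 from them (limma, adjusted p = 0.50). For Bcl2l1 the values were 3.91 and 0.22, for Zbtb46 3.23 and 0.13, for Irf4 1.93 and 0.16, and for Myc 1.75 and -0.20. In these genes the anti-CD86 value did not pass the test. Over the 10 of the 12 highest genes that were well above background on both unstimulated arrays, anti-CD40 lay 2.04 to 3.91 above unstimulated cells and anti-CD86 between -0.37 and 0.22 of them. The other 2, Saxo2 and Olfr1394, were above background on 0 and 1 unstimulated arrays and are left out of this range.

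Another set of genes was raised by both, and further by anti-CD40. Icam1 stood 2.75 above unstimulated cells with anti-CD40 and 0.78 with anti-CD86, Pim1 2.43 and 0.79, Il21r 1.86 and 0.56, Nfkbid 1.83 and 0.51, Tlr1 1.84 and 0.38 and Nolc1 1.69 and 0.57, and each of these passed (limma, the highest adjusted p being 0.0097, for Tlr1 with anti-CD86). In another set the stimuli lay on opposite sides of unstimulated cells. Maff was 1.43 above with anti-CD40 and -0.61 with anti-CD86, Rel 0.58 and -0.51, Traf1 1.15 and -0.25, and Slc16a1 0.32 and -0.66. The reverse held for Casp8 (-0.25 with anti-CD40 and 0.55 with anti-CD86), Itga4 (-0.30 and 0.72) and Unc119b (-0.93 and 0.80). All of these passed the test on both sides.

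A number of named genes passed above unstimulated cells with anti-CD86 and were less raised, or lower, with anti-CD40. Tirap (0.71 above with anti-CD86), Slfn2 (0.56) and Ccnd3 (0.42) were among them. Clcf1 was 1.40 above unstimulated cells with anti-CD86 and 0.54 with anti-CD40, Prkcd 0.88 and 0.32, and Tap2 0.76 and -0.05, where the anti-CD40 value did not pass. Atpgd1, among the 12 lowest genes, was at -1.66 and -2.37 with anti-CD40 and at -0.12 and -0.18 with anti-CD86, around unstimulated levels of -1.01 and -1.08. It passed on both sides, above them with anti-CD86 and below them with anti-CD40. So did Unc119b, as given above, and Ppargc1a (0.47 with anti-CD86 and -1.37 with anti-CD40) among the 12 lowest. The same held there for Lamc1 (0.40 and -1.40), Mbd4 (0.37 and -1.59), Ripor1 (0.36 and -1.51) and Hes5 (0.30 and -1.44). For Irs1 and Fcrla the difference lay on the anti-CD40 side. Anti-CD40 lay -2.06 and -1.98 from unstimulated cells, and the anti-CD86 values of both did not pass.

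**Figure D5:**
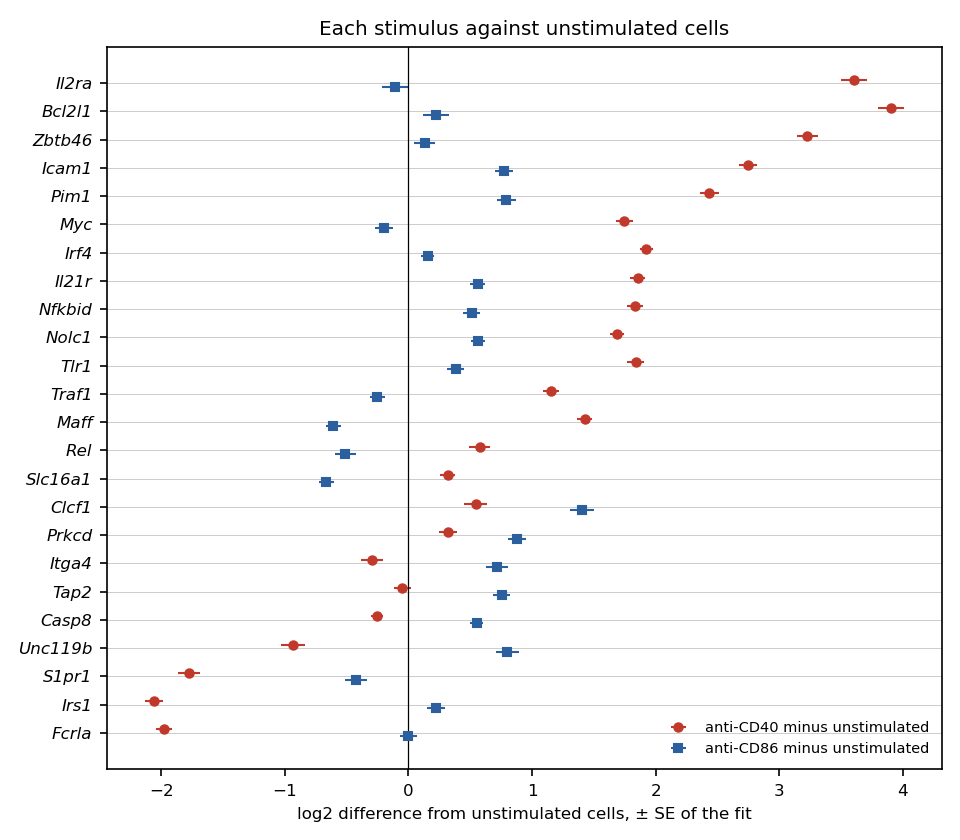
Log2 difference from unstimulated cells (x axis, ± SE of the fit over 12 arrays) for 24 genes named in the text, with anti-CD40 as red circles and anti-CD86 as blue squares. Il2ra, Bcl2l1 and Zbtb46 have anti-CD86 near 0, Icam1 and Pim1 have both above 0, and Casp8 and Unc119b have the stimuli on opposite sides.

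Some genes were well above background under one stimulus and on no array of the other, which gives a bound and no fitted fold. There were 81 such genes for anti-CD40 and 167 for anti-CD86, of which 64 and 45 passed the test. The counts also depend on the detection limit of each array. The lowest intensity well above background was 24.95 and 27.69 on the anti-CD40 arrays and 23.74 and 21.02 on the anti-CD86 arrays (slides 1 and 2). Among the genes that passed, the highest bounds for anti-CD40 were those of Lce3c (at least 9.80-fold), Pax2 (at least 8.67-fold) and Ntng1 (at least 7.19-fold). Lce3c is a gene of the cornified envelope of skin, Pax2 a factor of kidney development and Ntng1 an axon guidance gene. Their anti-CD40 arrays lay far apart, at 1.14 and -2.64 for Lce3c, 0.80 and -2.66 for Pax2 and 0.44 and -2.83 for Ntng1. The bounds rest largely on the slide 1 array. For anti-CD86 the highest bounds among the genes that passed were those of Prss39 (at least 3.25-fold), 2210408F21Rik (at least 3.12-fold), LOC100044770 (at least 3.05-fold) and Pnma1 (at least 3.02-fold). Their anti-CD86 arrays were close to each other and to the unstimulated arrays, as for 2210408F21Rik at -1.93 and -2.07 with anti-CD86 and -2.11 and -2.40 unstimulated, against -4.10 and -4.33 with anti-CD40.

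The labelled cell type was checked against markers. All 10 B cell markers were well above background on the 4 arrays, and 2 of them were higher and 5 lower with anti-CD40. Among all genes, 15.0% were higher and 20.8% lower. Of 6 plasma cell markers, 1 was higher and 3 were lower. Markers of other cells were detected as well, namely the 11 T cell, 8 NK cell and 12 myeloid markers on the array, among which Lyz2 and S100a9 were saturated. The summed level of the T cell markers was 28.2 to 36.3 times the 75th percentile with anti-CD40 and 30.3 to 34.0 with anti-CD86, that of the NK cell markers 13.9 to 16.7 and 15.3 to 17.3, and that of the myeloid markers 568 to 676 and 573 to 639. The saturated probes make up most of the myeloid sum, which therefore does not compare levels. No T cell marker differed between the stimuli. Gzma (-0.21 ± 0.06) among the NK cell markers and Lyz1 (-0.30 ± 0.06) among the myeloid ones were lower with anti-CD40. Zbtb46 is on the dendritic cell list, and the other 6 markers of that list (Flt3, Itgax, Xcr1, Siglech, Bst2 and Clec9a) did not pass. The platelet list had a summed level of 23.5 to 27.8 with anti-CD40 and 61.7 to 69.1 with anti-CD86. Most of it was Itgb3, the integrin beta 3 chain, at 4.66 and 4.40 against 6.05 and 5.87, with unstimulated cells at the anti-CD86 level. Pf4 was lower too (-0.40 ± 0.07), while Ppbp, Itga2b and Gp9 were dim and did not pass. Of the markers of other organs, 2 of 6 liver markers tested, 1 of 4 of the exocrine pancreas and 1 of 5 red cell markers were higher, 1 of 5 skeletal muscle markers was higher and 1 lower, and the 1 kidney marker tested did not pass. Gzma, Lyz1, Itgb3 and Pf4 were named after their values had been seen. The part of other cells in the differences above was not tested.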

How the data were processed

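RNA of 12 RB cell samples had been labelled with Cy3 and hybridised to a custom mouse array, 1 sample per array. The deposited scanner files hold a processed intensity per spot, which the authors obtained with Feature Extraction. The authors deposited a second table, of log2 values, which equalled the log2 processed intensity minus 1 constant per array. Outlier spots were left out, spots of a probe averaged, and the 75th percentile of the array subtracted on the log2 scale. A probe was kept when both arrays of some condition had it well above background (31667 of 61307), and 68 with a missing value were dropped. Saturated spots were kept.

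Tests used limma 3.58.1 in R 4.3.3 (lmFit and eBayes) on 31599 probes and all 12 arrays, with 1 coefficient per condition and the slide as a term, and Benjamini-Hochberg adjustment over all probes. The test was checked on simulated data, where 73 of 100 probes changed by 1 log2 unit and 86 of 100 changed by 2 were recovered. The simulation drew the spread of each array independently and changed 200 of 31599 probes. It therefore does not check the count of 11008 calls. Slide 1 held 8 arrays and slide 2 held 4, and for the 4 arrays compared the sample number of the labels is also the slide. Deviations of the same-numbered samples had a correlation of 0.55 across probes. Since number and slide coincide, this value carries the slide effect (18062 of 31599 probes differed between slides). It does not show that cultures or animals were paired. The slide term stands in for any pairing. The number of arrays limits the precision, and the SE given is that of the fit.

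Symbols are those of the RefSeq table (GRCm38.p6, names only, while the array was annotated to mm9), matched for 28136 of 40628 probes outside the noncoding set, and the file's names otherwise. A gene was given by its brightest probe. Named were the 12 highest and 12 lowest called genes with a symbol that were above background without saturation on the 4 arrays and had 1 direction on both slides, Cd40, Cd86, Cd80 and Cd28, all members of the CD40 and NF-kB component lists, up to 6 called members per other list, and up to 10 genes by a bound. The comparison and the lists were chosen with earlier results of these data known, so their counts are descriptions. A bound is the mean level of the detected group over, per array, the higher of the dim probe's own level and the lowest level well above background. The sets of alternatives are those of the closing section. Tables were made with pandas 2.3.3 and numpy 2.4.6 under Python 3.11.15, and plots with matplotlib 3.10.9. Some genes are not reported here.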

Additional observations from a re-analysis of the deposited data

How the results depend on the processing

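Beside the 11008 calls reported, other settings gave fewer, with 3197 under no slide term (no replicate block), 5423 with the replicate block in place of the slide, 1709 with the replicate block on the 4 arrays alone and 3146 by the methods' one-way test, and without a filter on dim probes the count was 6283. Leaving out 1 of the 4 arrays gave 7325 to 9455, the lowest without anti-CD86 replicate 2. The slide as a random block (10248), quantile normalization (11998), normexp (12700), the authors' values (11004), both other filters (11190 and 11058) and an intensity trend (12287) stayed within 1.5 times, as did median centring (7500), where only 743 calls were higher with anti-CD40. The cause of these losses was not tested. Dim probes, near the background of the arrays, limit the depth of the comparison.

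Of the 202 genes named by the rule, 188 passed. Of these, 60 no longer passed with no slide term, 87 with the 4 arrays alone, 70 by the methods' one-way test, 44 with median centring, 31 with no filter and 17 to 22 without 1 array. Directions turned with median centring for Asns (-0.25), Calr (-0.18), Canx (-0.16), Cd86 (-0.019), Cox5a (-0.22), E2f2 (-0.14), Gbp2 (-0.092), Gbp3 (-0.13), Hmgcs1 (-0.079), Hspd1 (-0.079), Ifi30 (-0.019), Rela (-0.13), Rpl14 (-0.15), Traf2 (-0.21), Ube2n (-0.16) and Uqcrfs1 (-0.19), and with the median over the probes of a gene for Irf9 (0.13) and Pfkp (0.31). That median moved 23 further genes by more than the spread between the slides.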

Other observations

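Noncoding RNA probes, which carry no gene symbol here, were tested with the others. Of 8427, 2645 passed, beside 11008 of all 31599 probes (34.8%). Of the 2645, 1630 were higher with anti-CD40, a larger share than the 45.9% of all calls. The difference between these shares was not tested. Dim probes were lifted on the second anti-CD40 array (median difference 0.355 on slide 2, 0.011 on slide 1). How far that enters the share of the noncoding probes was not tested. Saturation hid the levels of 716 genes on all 4 arrays, 11 of which passed. For 90% of the 716 the difference lay between 0.13 and 0.21, around a median of 0.17.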
